A study of Homo sapiens with 6 samples.

Results

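The enzymes of the methionine cycle, of methionine salvage and of polyamine metabolism were described after treatment with an inhibitor of PRMT5. The cells were labelled as a pancreatic cancer line. The set held 10 genes, found by symbol among the 58735 genes of the table: MAT2A, MAT2B, AHCY and MTR of the cycle, MTAP of the salvage route, and ODC1, AMD1, SRM, SMS and SAT1 of polyamine synthesis and turnover. Each symbol matched 1 row, and all 10 passed the filter on low values. The RNA came from cells labelled BxPC-3, an established line from a pancreatic adenocarcinoma, grown in RPMI-1640 with serum. In 3 libraries the cells had received GSK3326595, a small molecule that inhibits the arginine methyltransferase PRMT5, and 3 libraries were its DMSO controls. How much inhibitor was used, and for how long, is not stated in the labels. The design text speaks of a knockdown, whereas each library's label names the inhibitor, and the labels were followed. Nothing in the labels tells separate cultures from repeat libraries of 1 culture, and the p-values therefore reflect only how far these libraries spread, which may be technical.

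The methionine cycle makes and regenerates S-adenosylmethionine, the methyl donor that PRMT5 and other methyltransferases use. A methionine adenosyltransferase makes it from methionine, its demethylated product is cleared by AHCY, and MTR remakes methionine from homocysteine. Polyamine synthesis branches off this cycle: decarboxylated S-adenosylmethionine donates the groups that turn putrescine into spermidine and spermine, and leaves methylthioadenosine, which MTAP returns toward methionine. Methylthioadenosine is itself an inhibitor of PRMT5, which is why MTAP is often considered beside this enzyme.

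Values are FPKM (fragments per kilobase of the listed gene length, scaled to a total for each library). Whole reads could be recovered from them: the inhibitor libraries held 15724750, 14087260 and 15707218 reads, the DMSO libraries 15302555, 14201282 and 14858308. The scaling totals were not these sums. They lay below the reads in inhibitor replicate 2 (13384600) and DMSO replicate 3 (14806000), and above them in the other libraries. The values do not show how these totals were set. Inhibitor replicate 2 stood apart. Over the 13578 genes tested its log2 values had r = 0.906 with inhibitor replicate 1 and r = 0.904 with inhibitor replicate 3, while those replicates had r = 0.98 with each other. This is a description across genes, which are not independent. Mitochondrially encoded genes took 11.3% of its reads, against 4.70% to 6.03% in the other 5 libraries. Results are therefore also given without it, a choice made with its behaviour known. PRMT5 itself stood at 13.4, 12.8 and 12.1 FPKM in the inhibitor libraries and at 23.2, 24.6 and 26.2 FPKM in the DMSO libraries. The label of the line was only partly matched by markers. Of 8 epithelial markers, KRT7, KRT8 and KRT18 were abundant while 5 stayed under 1 FPKM in all libraries, and KRT19, CEACAM6 and ESRP1 had 0 reads; summed, the 8 came to 739 to 993 FPKM with inhibitor and 651 to 727 FPKM in DMSO, although KRT7 alone was lower, at 101 to 105 FPKM with inhibitor and 154 to 177 FPKM in DMSO. Of 4 pancreatic ductal markers 3 stayed under 1 FPKM in all libraries, among them PDX1 with 0 reads. The 4 mesenchymal markers summed to 84.9 to 115 FPKM with inhibitor and 77.3 to 84.5 FPKM in DMSO. The 4 fibroblast markers summed to 10.2 to 15.4 FPKM with inhibitor and 5.09 to 5.68 FPKM in DMSO, with COL1A2 at 0 reads. The 3 leukocyte and 3 acinar markers stayed under 1 FPKM. The part of these marker differences in the results below was not tested.

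The inhibitor comparison asked which transcripts differed when PRMT5 was inhibited. Of the 10 enzymes, MTR rose, ODC1 and SAT1 fell, and the other 7 did not pass the test (limma on log2(FPKM + 1), Benjamini-Hochberg adjusted p under 0.05). The background was 17.2% of all 13578 genes tested, 7.18% higher and 10.0% lower, and 3 of 10 is a count over few genes, read only beside that share. Over all genes the split was 975 higher and 1364 lower, and 1299 higher and 1000 lower when scaled without mitochondrial and the 50 most abundant genes; MTR, ODC1 and SAT1 kept their direction and call under that scaling. The median log2 fold change, inhibitor over DMSO, was −0.19 over the 10 enzymes and −0.05 over all genes tested. Without inhibitor replicate 2 the count was 1 higher and 4 lower, against a background of 40.6% (17.5% higher and 23.1% lower), and the medians were −0.14 and −0.05. The 3 inhibitor libraries lay wholly above the 3 DMSO libraries for MTR and wholly below them for ODC1, SAT1, SRM and SMS; of all genes tested 45.9% had such a lack of overlap, 19.2% higher and 26.7% lower. All 3 calls needed all 3 DMSO libraries: leaving out DMSO replicate 1, 2 or 3 gave 0 called enzymes, in fits where the count over all genes was also lower, at 478, 510 and 579 genes against 2339. The signs of MTR, ODC1 and SAT1 were kept in all 6 fits that left out 1 library. In bulk RNA, fewer cells of a kind and less RNA per cell cannot be told apart.

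**Figure D1:**
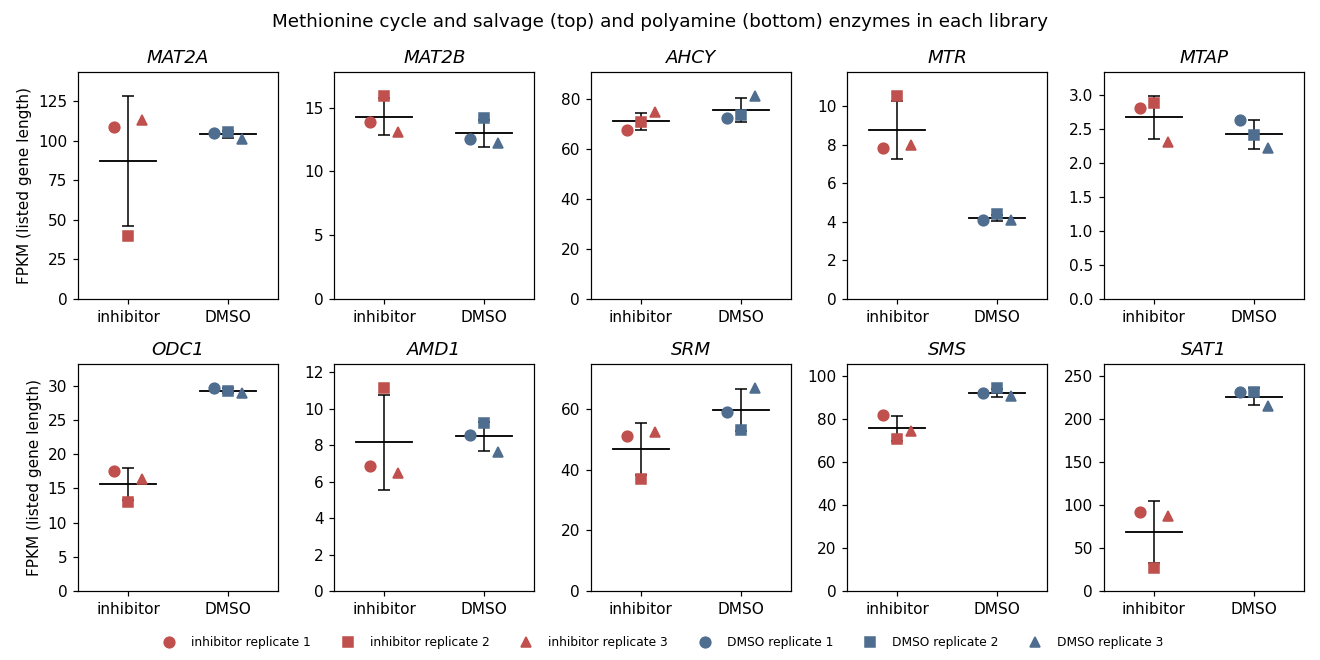
FPKM per listed gene length (vertical axes, starting at 0) of each enzyme in the 3 inhibitor and 3 DMSO libraries; points are libraries, marked by replicate number, horizontal lines are means and bars are SD (n = 3). MTR lies higher in all inhibitor libraries, ODC1 and SAT1 lie lower, and MAT2A at 39.7 FPKM and SAT1 at 27.2 FPKM show the low values of inhibitor replicate 2.

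In the methionine cycle, MAT2A encodes the catalytic subunit of the S-adenosylmethionine synthetase found outside the liver (ENSG00000168906, chromosome 2, 85539165 to 85545280, hg38). It stood at 109, 39.7 and 113 FPKM in the inhibitor libraries, against 105, 106 and 101 FPKM in the DMSO libraries. Inhibitor replicates 1 and 3 lay above every DMSO library and inhibitor replicate 2 far below, so the groups overlapped. The log2 fold change was −0.39 (95% interval −1.34 to 0.55, adjusted p = 0.510), and without inhibitor replicate 2 it was 0.09 (SE 0.05, adjusted p = 0.223). Among all genes tested, the gap between inhibitor replicate 2 and the mean of the other inhibitor libraries was −1.46 on the log2 scale for MAT2A, at percentile 2.71 from the bottom. So the sign of the MAT2A difference rested on this library, and no change was detectable.

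MAT2A transcripts carry hairpins in the 3′ untranslated region that the methyltransferase METTL16 is known to recognise. Through them cells are known to adjust MAT2A RNA to the supply of S-adenosylmethionine. These sites are shown because they are the known link between the substrate of PRMT5 and a transcript of this set. The letters TACAGANAA, searched on the transcript strand of MAT2A-201 (GENCODE 29, GRCh38), occurred 6 times in its 2819 bases, all in the 3′ untranslated region. The motif occurred at least once in 10.8% of the 19669 protein-coding genes searched, in the longest coding transcript of each, and 6 or more times in 3 of them, MAT2A included. The sites follow in order from 5′ to 3′ with the motif in capitals, on the plus strand of chromosome 2.
Site 1, from 85543802 to 85543830: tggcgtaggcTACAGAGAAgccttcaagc
Site 2, from 85544589 to 85544617: tgtgatgtcaTACAGAGAAgtcacagggc
Site 3, from 85544774 to 85544802: ctggtgtagcTACAGAGAAaccagcttcc
Site 4, from 85544889 to 85544917: atggcgtaagTACAGAGAAgccatcacct
Site 5, from 85545004 to 85545032: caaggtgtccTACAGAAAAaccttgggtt
Site 6, from 85545112 to 85545140: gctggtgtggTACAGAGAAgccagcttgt
Sites 1 to 4 and 6 hold TACAGAGAA and site 5 holds TACAGAAAA. METTL16 RNA stood at 7.29, 9.21 and 6.50 FPKM in the inhibitor libraries and at 7.57, 7.09 and 7.44 FPKM in the DMSO libraries. The groups overlapped, with no call for METTL16 (0.04 on the log2 scale, adjusted p = 0.867; it turned negative without inhibitor replicate 2 and in 2 of 13 other settings). METTL16 was named after its values were seen. The listed length of MAT2A, 4487 bases, equals the union of all its annotated exons, which includes 3 transcripts with a retained intron, so the values cannot separate spliced from intron-retaining MAT2A RNA.

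MAT2B (ENSG00000038274, chromosome 5, 163503114 to 163519336) encodes the regulatory subunit that pairs with the MAT2A protein. It stood at 13.9, 15.9 and 13.1 FPKM with inhibitor and at 12.5, 14.2 and 12.2 FPKM in DMSO, with overlapping groups (log2 fold change 0.13, 95% interval −0.17 to 0.42, adjusted p = 0.493). The ratio of MAT2A to MAT2B FPKM was 7.84, 2.50 and 8.62 in the inhibitor libraries and 8.41, 7.43 and 8.28 in the DMSO libraries. Only inhibitor replicate 2 fell outside the DMSO range by a wide margin.

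AHCY (ENSG00000101444, chromosome 20, 34280268 to 34311802) encodes the hydrolase that clears S-adenosylhomocysteine, the product that inhibits methyltransferases. Its values were close together, at 67.9, 70.8 and 74.8 FPKM with inhibitor and 72.5, 73.6 and 81.3 FPKM in DMSO. The libraries overlapped, and the log2 fold change of −0.09 (95% interval −0.36 to 0.18, adjusted p = 0.605) turned positive with quantile normalization and when scaled without the most abundant genes. AHCY has 6 annotated processed copies in the table, the highest at 0.172 FPKM, so few reads were assigned to them.

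MTR (ENSG00000116984, chromosome 1, 236795281 to 236903981) encodes methionine synthase, which moves a methyl group from folate to homocysteine with the help of cobalamin. It stood at 7.84, 10.5 and 7.99 FPKM in the inhibitor libraries, against 4.11, 4.39 and 4.09 FPKM in the DMSO libraries. Every inhibitor library lay above every DMSO library, and inhibitor replicate 2 was the highest. The means were 8.79 ± 1.51 FPKM with inhibitor and 4.20 ± 0.172 FPKM in DMSO (SD, n = 3 each). MTR was the only one of the 10 enzymes called higher, with a log2 fold change of 0.90 (SE 0.14, limma adjusted p = 0.0102), and 0.78 (SE 0.07, adjusted p = 0.00103) without inhibitor replicate 2. Adjusted p-values without DMSO replicate 1, 2 or 3 were 0.0601, 0.0545 and 0.0553. The call held under all 13 other settings tried, with log2 fold changes of 0.74 to 1.05. The 0.74 came with a trend on gene length removed (limma adjusted p = 0.00392). MTR is listed at 11374 bases, and inhibitor replicate 2 stood 0.37 above the mean of the other inhibitor libraries on the log2 scale. Over genes listed at 6000 bases or more the median of that gap was 0.23. Its part in the MTR difference was not tested. Within libraries the ratio of AHCY to MTR FPKM was 8.65, 6.73 and 9.36 with inhibitor and 17.6, 16.7 and 19.9 in DMSO, with no overlap.

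The 3 genes outside the set with values most like those of MTR over the 6 libraries, by Pearson's r of log2(FPKM + 1), were PPP2R2B (r = 0.999), AC069029.1 (r = 0.999) and TLL1 (r = 0.999). AC069029.1, for example, stood at 68.2, 108 and 66.2 FPKM with inhibitor and 23.6, 24.4 and 21.3 FPKM in DMSO, with the same high value in inhibitor replicate 2. Such likeness was not confined to these 3: of the 13578 genes tested, 553 outside the set had r over 0.95 with MTR. All points share the 2 groups and the 6 libraries.

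MTAP (ENSG00000099810, chromosome 9, 21802543 to 21937651) encodes the phosphorylase that splits methylthioadenosine. It stood at 2.81, 2.89 and 2.31 FPKM in the inhibitor libraries and at 2.64, 2.41 and 2.22 FPKM in the DMSO libraries. The groups overlapped, and no difference was detectable (log2 fold change 0.10, 95% interval −0.20 to 0.39, adjusted p = 0.598); the sign turned negative when a trend on gene length was removed. MTAP reads were present in all 6 libraries, 481 to 674 in each. MTAP is overlapped by 5 annotated genes, of which TUBB8P1 was highest, at 1.34 FPKM at most. Its neighbour on 9p, the cell cycle inhibitor gene CDKN2A, stood at 61.0, 24.7 and 64.7 FPKM with inhibitor and 108, 95.6 and 118 FPKM in DMSO. BxPC-3 is recorded as lacking CDKN2A and SMAD4, and both had reads here, SMAD4 at 3.02 ± 0.535 FPKM with inhibitor and 3.64 ± 0.283 FPKM in DMSO. The libraries thus went against that record at CDKN2A and SMAD4. Every inhibitor library lay below every DMSO library for CDKN2A, yet at −1.19 (SE 0.36, adjusted p = 0.0693) it missed the threshold with limma. It passed with limma-voom on recovered reads (adjusted p = 0.0493) and without inhibitor replicate 2 (−0.76, adjusted p = 0.0027). CDKN2B, also an inhibitor of the cell cycle, was not called either (−0.48, adjusted p = 0.231). The other 4 of the 6 neighbours listed, which were CDKN2B-AS1, DMRTA1, ELAVL2 and IFNE, did not pass the filter, and ELAVL2 had 0 reads.

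Among the polyamine enzymes, ODC1 encodes ornithine decarboxylase, the entry step that makes putrescine (ENSG00000115758, chromosome 2, 10439968 to 10448504). It stood at 17.5, 13.01 and 16.4 FPKM in the inhibitor libraries, against 29.7, 29.2 and 29.01 FPKM in the DMSO libraries. The DMSO values were nearly equal, and all inhibitor values lay well below them. The means were 15.7 ± 2.35 FPKM with inhibitor and 29.3 ± 0.328 FPKM in DMSO (SD, n = 3 each). ODC1 fell by 0.87 on the log2 scale (SE 0.13, limma adjusted p = 0.0108), and by 0.75 (SE 0.06, adjusted p = 0.000689) without inhibitor replicate 2. Without DMSO replicate 1, 2 or 3 the adjusted p was 0.0637, 0.0614 and 0.0552. All 13 other settings kept the call, with log2 fold changes of −0.94 to −0.72. A small nucleolar RNA gene, SNORA80B, overlaps ODC1 and was at 1.004 FPKM at most.

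AMD1 (ENSG00000123505, chromosome 6, 110874770 to 110895713) encodes the decarboxylase that commits S-adenosylmethionine to polyamines. It stood at 6.87, 11.1 and 6.44 FPKM with inhibitor and at 8.57, 9.22 and 7.64 FPKM in DMSO. Inhibitor replicates 1 and 3 lay below all DMSO libraries and inhibitor replicate 2 above them, the reverse of the MAT2A pattern. The log2 fold change was −0.08 (95% interval −0.58 to 0.41, adjusted p = 0.798), and its sign turned without inhibitor replicate 1 or 3 and when scaled without the most abundant genes. Without inhibitor replicate 2 AMD1 was called lower, at −0.31 (SE 0.09, adjusted p = 0.0433). AMD1 has 4 annotated pseudogenes, the highest at 1.29 FPKM.

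SRM and SMS encode the synthases that add an aminopropyl group to make spermidine and spermine. SRM (ENSG00000116649, chromosome 1, 11054584 to 11060024) stood at 51.1, 37.0 and 52.5 FPKM in the inhibitor libraries and at 59.2, 53.4 and 67.0 FPKM in the DMSO libraries. All inhibitor values lay below the DMSO values, narrowly so for replicate 3, and SRM missed the threshold (−0.36 on the log2 scale, 95% interval −0.78 to 0.06, adjusted p = 0.197). SMS (ENSG00000102172, chromosome X, 21940573 to 21994835) stood at 81.9, 70.7 and 74.1 FPKM with inhibitor and at 91.7, 94.1 and 90.4 FPKM in DMSO. Its groups did not overlap, and it was not called over the 6 libraries (−0.28, 95% interval −0.55 to −0.02, adjusted p = 0.127) but was without inhibitor replicate 2 (−0.24, adjusted p = 0.0294). The SMS to SRM ratio of FPKM was 1.60, 1.91 and 1.41 with inhibitor and 1.55, 1.76 and 1.35 in DMSO, so the balance of the synthases overlapped between groups.

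SAT1 (ENSG00000130066, chromosome X, 23783173 to 23786226) encodes the acetyltransferase that starts polyamine breakdown and export. It had the largest difference of the 10 enzymes, at 91.9, 27.2 and 87.3 FPKM in the inhibitor libraries, against 232, 232 and 215 FPKM in the DMSO libraries. All inhibitor libraries lay below all DMSO libraries, and inhibitor replicate 2 was lowest by far. The means were 68.8 ± 36.1 FPKM with inhibitor and 226 ± 9.67 FPKM in DMSO (SD, n = 3 each). SAT1 fell by 1.89 on the log2 scale (SE 0.45, limma adjusted p = 0.0358), and by 1.33 (SE 0.06, adjusted p = 0.000171) without inhibitor replicate 2. Its absolute log2 change stood at percentile 99.2 of all genes tested. The call was lost without inhibitor replicate 3 (adjusted p = 0.052) and without DMSO replicate 1, 2 or 3 (adjusted p = 0.123, 0.119 and 0.115). SAT1 was called in 10 of 13 other settings; with no filter on low values the adjusted p was 0.0859 and with TPM 0.0558. The gap between inhibitor replicate 2 and the mean of the other inhibitor libraries was −1.68 on the log2 scale for SAT1, at percentile 1.47 of all genes tested. SAT1 is listed at 2498 bases, and the median of this gap over genes listed at 1500 to 3000 bases was −0.39. It was −0.10 both under 1500 bases and at 3000 to 6000 bases, and 0.23 at 6000 bases or more. Nuclear coding genes listed under 1500 bases took 1.09% of nuclear coding reads in inhibitor replicate 2, against 2.27% to 2.61% in the other libraries. The part of library quality in the size of the SAT1 difference was not tested; the difference without that library is given above.

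Over the 6 libraries the called polyamine enzymes stood at the entry to the route and at the exit from it. Both fell, beside 10.0% of all genes called lower. This placing depended on inhibitor replicate 2. Without it AMD1 (−0.31, limma adjusted p = 0.0433) and SMS (−0.24, adjusted p = 0.0294) were called lower too, beside 23.1% of all genes. The SAT1 to ODC1 ratio of FPKM was 5.25, 2.09 and 5.31 in the inhibitor libraries and 7.82, 7.94 and 7.42 in the DMSO libraries. The ratio was lower in each inhibitor library than in any DMSO library; no test of the ratio was made.

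**Figure D2:**
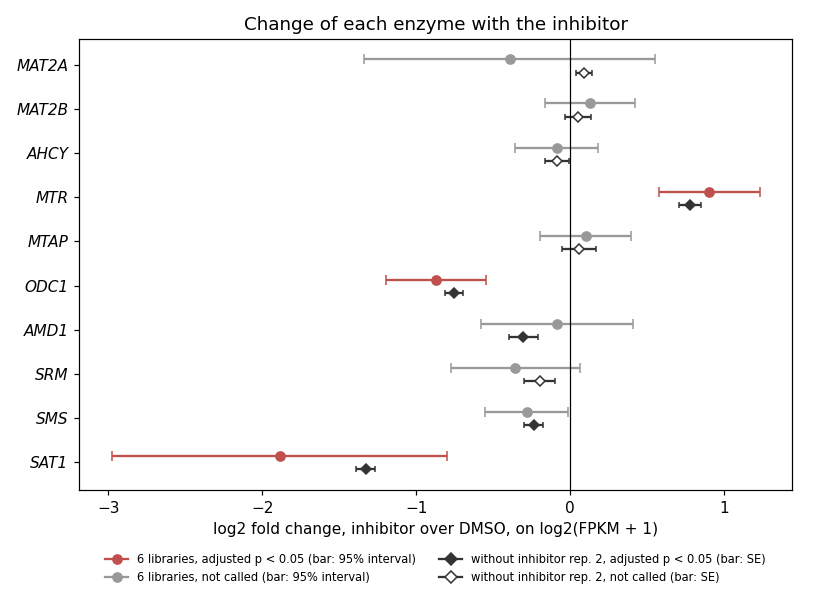
Log2 fold change, inhibitor over DMSO, of each enzyme (horizontal axis); circles use all 6 libraries with 95% intervals, and diamonds, filled where called, leave out inhibitor replicate 2, with bars of 1 SE. MTR at 0.90, ODC1 at −0.87 and SAT1 at −1.89 are the called enzymes, and MAT2A moves from −0.39 to 0.09 when the library is left out.

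The promoters of the called enzymes are shown so that their sequences can be set beside the changes. They come from RefSeq (GRCh38.p14), in which all 10 enzymes were matched, and run from 250 bases before the RefSeq gene start to 50 after it. For ODC1, on the minus strand, that start lies inside the locus listed above, which ends at 10448504. Capitals mark matches, on either strand, to the core letters of the CCAAT box (CCAAT), of the TATA box (TATAA) and of the E-box (CACGTG). No match overlaps another in these windows. Each promoter is written 5′ to 3′ along the strand of its gene.
MTR, chr1:236795031-236795330, plus strand: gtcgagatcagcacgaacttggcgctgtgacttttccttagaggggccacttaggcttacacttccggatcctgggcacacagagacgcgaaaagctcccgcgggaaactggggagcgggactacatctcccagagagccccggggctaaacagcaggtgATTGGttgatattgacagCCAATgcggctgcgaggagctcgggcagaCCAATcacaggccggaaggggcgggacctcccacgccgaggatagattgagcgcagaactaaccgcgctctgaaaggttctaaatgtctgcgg
ODC1, chr2:10448278-10448577, minus strand: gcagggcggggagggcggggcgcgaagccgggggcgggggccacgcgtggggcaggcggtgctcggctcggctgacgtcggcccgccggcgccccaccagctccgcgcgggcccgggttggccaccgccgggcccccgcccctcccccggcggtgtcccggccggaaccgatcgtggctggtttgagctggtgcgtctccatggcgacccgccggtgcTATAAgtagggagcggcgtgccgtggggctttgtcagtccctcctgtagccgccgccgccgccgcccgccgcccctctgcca
SAT1, chrX:23782923-23783222, plus strand: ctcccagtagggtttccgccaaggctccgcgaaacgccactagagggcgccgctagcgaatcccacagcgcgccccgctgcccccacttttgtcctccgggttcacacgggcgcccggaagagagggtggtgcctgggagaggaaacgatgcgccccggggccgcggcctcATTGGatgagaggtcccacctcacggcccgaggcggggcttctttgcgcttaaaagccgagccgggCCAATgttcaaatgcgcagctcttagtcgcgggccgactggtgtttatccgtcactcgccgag
The MTR window held 3 CCAAT matches and the SAT1 window 2, whereas ODC1 held none. ODC1 had 1 TATAA match that began 32 bases before the RefSeq gene start, inside the listed locus. Over the 10 enzymes CCAAT was found in 6 windows, TATAA in 5 and CACGTG in 1, that of SRM. The share of all 35116 promoters of this length was 34.6% for CCAAT, 20.4% for TATAA and 7.26% for CACGTG. A match is a description of the letters and not a site. GC content was 58.7% in MTR, 79% in ODC1 and 66% in SAT1, and 58.7% at the median of all promoters.

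Levels differed widely within the set. In DMSO the order per listed length was SAT1, MAT2A, SMS, AHCY, SRM, ODC1, MAT2B, AMD1, MTR and MTAP, with means of 226 FPKM for SAT1 and 2.42 ± 0.208 FPKM for MTAP (SD, n = 3), and no neighbours in that order overlapped between libraries. In the inhibitor libraries SAT1 and MAT2A spanned values that overlapped those of SMS, AHCY and SRM, SMS overlapped with AHCY, ODC1 with MAT2B and AMD1 with MTR, and MTAP remained lowest at 2.67 ± 0.313 FPKM (SD, n = 3). The listed length is the union of all annotated exons for each of the 10 enzymes, and for some it is much longer than the principal transcript. MTAP is listed at 14617 bases and its longest principal transcript in GENCODE 29 has 6122. Per kilobase of that transcript, a length chosen after the listed lengths were seen, MTAP would be at 6.38 ± 0.748 FPKM with inhibitor and 5.78 ± 0.496 FPKM in DMSO (SD, n = 3 each). In DMSO it would then rank above MTR, at 4.53 ± 0.186 FPKM, and AHCY, at 138 ± 8.69 FPKM, would rank above SMS, at 108 ± 2.24 FPKM. Fold changes between groups rest on the same length in both and do not depend on it apart from the pseudocount.

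**Figure D3:**
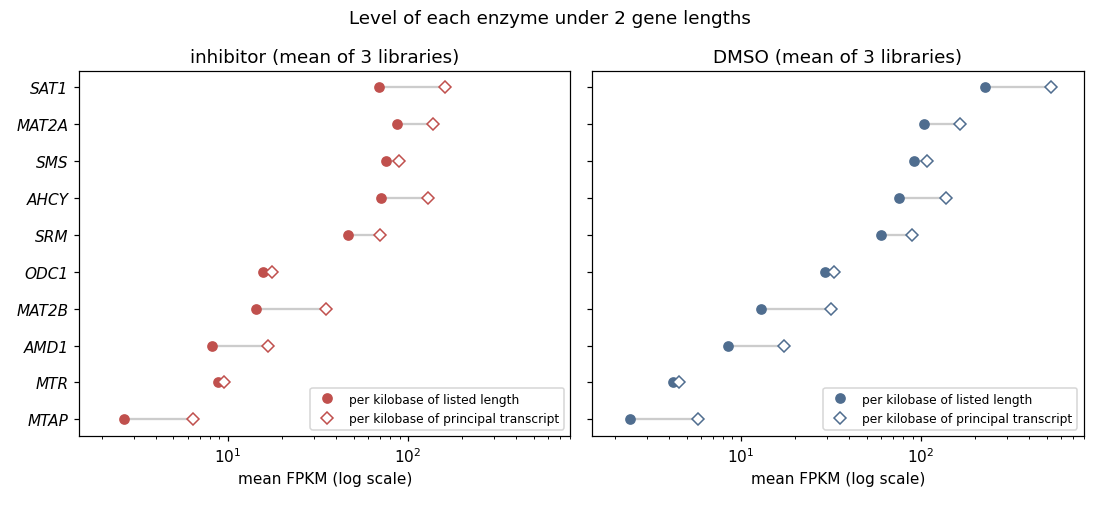
Mean FPKM of each enzyme on a log axis, over 3 inhibitor libraries (left) and 3 DMSO libraries (right); filled circles use the listed gene length and open diamonds the longest principal transcript. MTAP in DMSO moves from 2.42 to 5.78 FPKM, while MTR, at 4.20 and 4.53 FPKM, hardly moves.

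The wider pathways were described from lists of related genes, to be read beside all genes tested: 7.18% higher, 10.0% lower and a median of −0.05 over the 6 libraries, and 17.5% higher and 23.1% lower without inhibitor replicate 2. Of 10 relatives of the methionine cycle 6 passed the filter and were tested. NNMT fell, and the other tested genes were not called. NNMT, which uses S-adenosylmethionine to methylate nicotinamide, stood at 18.9, 18.2 and 17.3 FPKM with inhibitor and at 36.9, 34.6 and 33.8 FPKM in DMSO. Its groups were tight and far apart, and it fell by 0.92 on the log2 scale (SE 0.10, limma adjusted p = 0.00451), a call kept without each library in turn. The list median was −0.09. The liver enzyme MAT1A had 0 reads in all libraries, which leaves room for up to 3 reads over the 6 libraries, or 0.0089 FPKM, by counting error alone. Without inhibitor replicate 2 the list had 1 higher and 3 lower.

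Of 8 transsulfuration and glutathione genes 7 passed the filter and were tested. Over the 6 libraries 0 were called with limma, nor with limma-voom on recovered reads. GSS and SUOX, 2 of the 7 tested, had an unadjusted limma p under 0.05, beside 34.6% of all genes tested. The list median was −0.18, and without inhibitor replicate 2 there were 1 higher and 1 lower. CTH, which makes cysteine from cystathionine, averaged 27.98 ± 2.003 FPKM with inhibitor and 29.7 ± 3.90 FPKM in DMSO (SD, n = 3 each). GSS, the last enzyme of glutathione synthesis, averaged 16.5 ± 2.45 FPKM with inhibitor and 23.4 ± 2.16 FPKM in DMSO (SD, n = 3 each), without overlap. Of the 6 salvage genes that act after MTAP, 2 fell and 0 rose, with a median of −0.14. That one-sided count turned to 1 higher and 1 lower with quantile normalization, when scaled without the most abundant genes and with a length trend removed; GOT1, an aminotransferase named after its values were seen, was the higher one, and averaged 22.2 FPKM with inhibitor and 17.8 FPKM in DMSO (adjusted p = 0.163 as fitted here). The 2 genes that fell in the main fit were ADI1 and ENOPH1, which catalyse successive steps. ADI1 stood at 3.88, 3.28 and 4.15 FPKM with inhibitor, against 5.91, 6.03 and 5.73 FPKM in DMSO. ENOPH1 stood at 14.7, 13.3 and 15.1 FPKM with inhibitor, against 20.1, 19.1 and 20.1 FPKM in DMSO. ADI1 fell by 0.53 (adjusted p = 0.026) and ENOPH1 by 0.44 (adjusted p = 0.035), and each was lost without DMSO replicate 1, 2 or 3 or inhibitor replicate 1, ENOPH1 also without inhibitor replicate 3 (adjusted p from 0.0696 to 0.158 over both). Over 13 other settings ADI1 was called in 11 and ENOPH1 in 8. Without inhibitor replicate 2 the counts were 1 higher and 3 lower.

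Of 15 genes that regulate, transport or break down polyamines, or act on their precursors, 11 passed the filter and were tested. Of these 3 fell and 0 rose, with a median of −0.48, beside 10.0% lower and a median of −0.05 over all genes. The spermine oxidase SMOX stood at 9.57, 3.96 and 8.24 FPKM with inhibitor, against 20.7, 18.1 and 21.9 FPKM in DMSO. Like SAT1 it was lower in every inhibitor library and lowest in replicate 2, and it fell by 1.43 on the log2 scale (SE 0.29, limma adjusted p = 0.0217; −1.10 without inhibitor replicate 2). The polyamine transporter gene ATP13A3 fell by 0.69 (limma adjusted p = 0.035) and OAT, which encodes ornithine aminotransferase, by 0.48 (adjusted p = 0.0397). Each was lost without DMSO replicate 1, 2 or 3, and ATP13A3 and OAT also without inhibitor replicate 1 or 3 (adjusted p from 0.0642 to 0.168 over the 3 genes). Over 13 other settings SMOX was called in 12, ATP13A3 in 9 and OAT in 8. Without inhibitor replicate 2, 7 fell and 0 rose, beside 23.1% lower over all genes. OAZ1 and SAT2 were chosen after their values were seen. OAZ1, the antizyme that directs ornithine decarboxylase to degradation, stood at 90.4, 43.1 and 94.4 FPKM with inhibitor and 119.9, 117 and 123 FPKM in DMSO and was not called (−0.73, adjusted p = 0.14), but was without inhibitor replicate 2 (−0.37, adjusted p = 0.00398). SAT2, a relative of SAT1, averaged 8.89 ± 3.88 FPKM with inhibitor and 19.1 ± 2.38 FPKM in DMSO (SD, n = 3 each) and was not called (−1.11, adjusted p = 0.0634), but was in 3 of 13 other settings and without inhibitor replicate 2 (−0.72, adjusted p = 0.0046).

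Spermidine is also used to make hypusine, a modified lysine carried by the translation factor eIF5A. Both enzymes of that route fell. DHPS stood at 1.502, 0.398 and 1.67 FPKM with inhibitor, against 4.02, 3.77 and 3.98 FPKM in DMSO, and DOHH at 7.75, 3.49 and 9.45 FPKM with inhibitor, against 15.7, 16.7 and 18.9 FPKM in DMSO. Each was lower in every inhibitor library, with log2 fold changes of −1.22 for DHPS (SE 0.26, limma adjusted p = 0.0245) and −1.28 for DOHH (SE 0.31, adjusted p = 0.037); without inhibitor replicate 2 these were −0.93 and −0.92. DHPS rested on 16 reads in inhibitor replicate 2, and both calls were lost without DMSO replicate 1, 2 or 3, that of DOHH also without inhibitor replicate 1 (adjusted p from 0.0708 to 0.132). Over other settings DHPS was called in 9 of 12 and DOHH in 10 of 13; no filter on low values and TPM ended both calls, and a pseudocount of 0.1 that of DHPS. Among the 4 genes of the list 2 fell and 0 rose, with a median of −0.90, and 3 fell without inhibitor replicate 2, beside 10.0% and 23.1% lower over all genes. The gene of the substrate itself, EIF5A, named after its values were seen, was at 158, 207 and 157 FPKM with inhibitor and 255, 238 and 278 FPKM in DMSO and narrowly missed the threshold (−0.57, adjusted p = 0.0534).

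Of the 12 arginine methyltransferases and cofactors 3 fell and 0 rose, beside 10.0% lower and 7.18% higher over all genes. The list median was −0.24. PRMT5 fell by 0.90 on the log2 scale (SE 0.11, limma adjusted p = 0.00493), PRMT1 by 0.83 (adjusted p = 0.0356) and WDR77, the partner of PRMT5, by 0.48 (adjusted p = 0.0397). The PRMT5 call held in all 6 fits that left out 1 library, whereas PRMT1 and WDR77 were lost without DMSO replicate 1, 2 or 3 or inhibitor replicate 1 (adjusted p from 0.0754 to 0.155). Over 13 other settings PRMT1 was called in 11 and WDR77 in 7. Without inhibitor replicate 2 the list had 1 higher and 5 lower, beside 17.5% higher and 23.1% lower over all genes. The enzymes and these lists were chosen with earlier results of these data known, so the counts describe them and lend no independent weight to a direction.

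**Figure D4:**
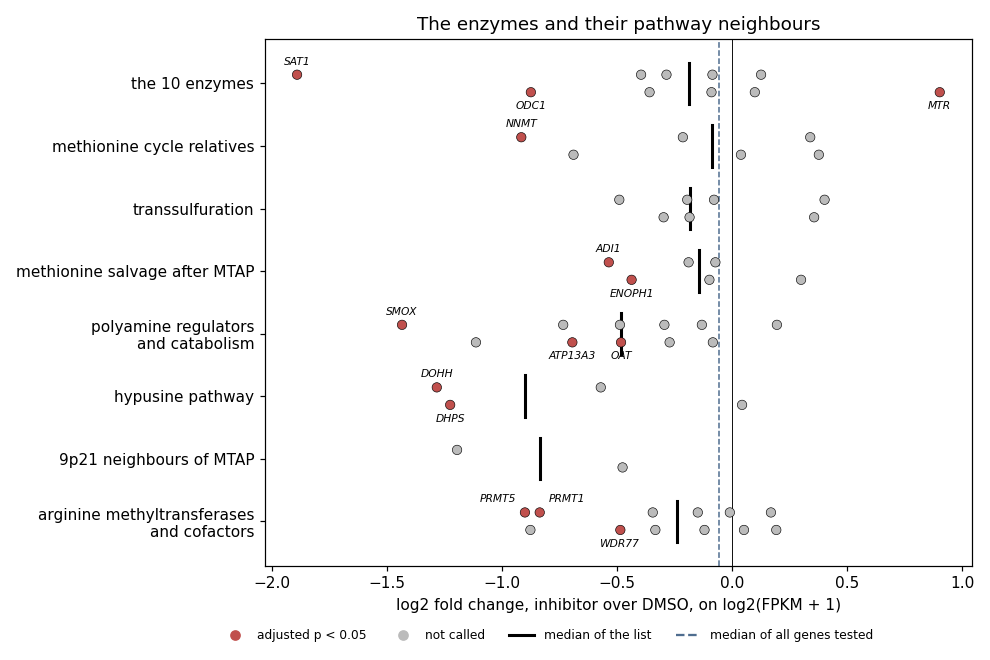
Log2 fold change, inhibitor over DMSO (horizontal axis), of the tested genes described in each list. Red points passed adjusted p under 0.05 and grey points did not. Black bars are list medians, and the dashed line is the median of all genes tested, −0.05. SAT1, SMOX, DHPS and DOHH lie at −1.22 or lower, and MTR, at 0.90, is the called gene above 0 among those drawn.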

How the data were processed

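The authors deposited 1 table of FPKM values, 1 column per library, with a listed length for each gene. Per the submitters' processing notes hg38 was the build, and per the labels' protocols total RNA went into a directional library kit. Neither the aligner nor the counter, nor whether counting used strand, is stated there, so reads of MAT2A and of GGCX, which overlaps it on the other strand, could be mixed (GGCX reached 5.05 FPKM). FPKM times listed length gave whole reads in each library for 100% of values above 0, within 0.01 reads. No pair of libraries of a group was alike within sampling noise (chi-square per degree of freedom 2.48 to 98.7).

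Genes that reached 1 FPKM in 3 or more libraries were fitted on log2(FPKM + 1) with limma 3.58.1 in R 4.3.3 (trend, two-sided, no block), adjusted by Benjamini-Hochberg over 13578 genes at 0.05. This scale understates the change of low genes. The test was also run on simulated data. Python 3.11.15, pandas 2.3.3 and matplotlib 3.10.9 were used. The enzymes, PRMT5 and CDKN2A were always named; from each list up to 4 called genes with the smallest adjusted p were named or, if none, the 2 most abundant; and the 3 genes most like the enzyme with the smallest adjusted p. The members and lists were chosen with earlier results of these data known. A gene of these lists is not reported here and enters no list count or median. Alternatives are given in the closing section.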

Additional observations from a re-analysis of the deposited data

How the results depend on the processing

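Relative to 2339 genes called, the count was 1533 with no filter on low values, 1505 with a filter at 5 FPKM, 7697 with library weights, 1478 with a replicate block, 2090 to 2965 under the remaining settings, and 478 to 5513 when 1 library was left out. Scaling without mitochondrial and the 50 most abundant genes put the median log2 change over all genes at 0.05, against −0.05, and the split at 1299 higher and 1000 lower, against 975 and 1364. Enzymes called numbered 5 with library weights and 0 to 5 when 1 library was left out. MTR kept a positive sign (0.78 to 0.97) and ODC1 a negative one (−0.95 to −0.75) when 1 library was left out. SAT1 was −2.19 to −1.33 there, and missed the threshold at −1.89 with no filter, −1.94 with TPM and −1.89 with a replicate block. Other enzymes moved as follows: MTAP was −0.11 with a length trend removed; MAT2A was 0.045 with library weights and −0.65 to 0.0906 leaving out 1 library (0.0906 without inhibitor replicate 2); AHCY was 0.086 with quantile normalization and 0.043 with the rescaling; AMD1 was 0.036 with the rescaling, −0.30 (called) with library weights, and −0.31 to 0.05 leaving out 1 library (0.0057 without inhibitor replicate 1, 0.046 without inhibitor replicate 3); SMS was −0.20 (called) with library weights and −0.34 to −0.24 leaving out 1 library. The cause of these moves was not tested.

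With library weights the calls were 5 for methionine cycle relatives, 5 for transsulfuration, 4 for salvage, 7 for polyamine regulators, 1 for the 9p neighbours and 6 for methyltransferases. With no filter they were 1 for salvage, 0 for polyamine regulators, 0 for hypusine and 1 for methyltransferases, and with TPM 1 each for salvage, hypusine and methyltransferases. Relatives had 2 with a filter at 5 FPKM, 2 with limma-voom on recovered reads and 2 with a length trend removed, transsulfuration 1 with the rescaling, polyamine regulators 1 with the rescaling and 1 with quantile normalization, hypusine 1 at a pseudocount of 0.1, and the 9p neighbours 1 with limma-voom. Leaving out 1 library gave 1 to 4 for relatives, 0 to 2 for transsulfuration, 0 to 4 for salvage, 0 to 7 for polyamine regulators, 0 to 3 for hypusine, 0 to 1 for the 9p neighbours and 1 to 6 for methyltransferases.

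Whether the replicate numbers pair the libraries is not settled. Same-numbered libraries deviated together at r = −0.018, 0.157 and 0.248 across genes. Inhibitor replicates 2 and 3 correlated best with the DMSO library of the same number, and inhibitor replicate 1 with DMSO replicate 3 (r = 0.092). Deviations within a group depend on each other, so these values cannot decide the question. With the replicate block 1478 genes were called, with 2 for relatives, 0 for salvage, 1 for polyamine regulators and 1 for hypusine. Among the enzymes MTAP and ODC1 had the fewest reads in a library, 481 to 674 for MTAP and 517 to 1377 for ODC1.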
